A study of Mus musculus with 4 samples.

Results

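The testis-specific serine kinases are a family of protein kinases made in the germ cells of the testis. The 6 genes described here are the kinases TSSK1, TSSK2, TSSK3, TSSK4 and TSSK6 and the kinase substrate TSKS, out of 25824 gene symbols that the count tables of the series hold. They were taken by name, and all 6 have a row in each of the 4 tables. A further kinase symbol, TSSK5, was present in only 1 table, with 1 count.

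Spermatids, the haploid cells that follow meiosis, turn from round cells into elongated ones while the acrosome forms, histones give way to protamines and the tail is built. Most members of this kinase family are transcribed after meiosis, and they phosphorylate proteins of the centriole, the tail and the chromatoid body, an RNA-rich granule of the spermatid. TSSK1 and TSSK2 bind and phosphorylate TSKS, TSSK4 acts on the outer dense fibre protein ODF2, TSSK3 can be activated by the kinase PDPK1, and TSSK6, which is held by the co-chaperone TSACC and HSP90, is needed for the exchange of histones for protamines.

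Single cells of whole testes were barcoded in droplets and their RNA was counted from the 3′ end, in 2 WT mice labelled Ctcf wt/wt and 2 Ctcf-cKO mice labelled Stra8-iCre-Ctcf f/Δ. All samples were labelled as testes of C56BL/6J mice aged 15 weeks, while the study's methods give 12 to 15 weeks and allow littermates with floxed alleles among the WT. In Ctcf-cKO mice the Stra8-iCre driver removes the remaining floxed allele in germ cells, so somatic cells of the testis keep 1 allele, and filtrates of a pair of tubes were pooled for a Ctcf-cKO mouse. Ctcf, the deleted gene, was at 16.4 and 10.1 CPM (counts scaled to a library sum of 1000000) over all barcodes in WT replicates 1 and 2 and at 1.51 and 4.39 CPM in Ctcf-cKO replicates 1 and 3. In spermatid-like cells together it had 19 and 6 counts in WT (11.2 and 3.34 CPM) and 0 and 4 counts in Ctcf-cKO mice (0 and 10.2 CPM), and all 4 counts of Ctcf-cKO replicate 3 lay in round cells, at 33.7 CPM against 10.03 and 3.74 CPM in WT. Within spermatid-like cells the value of Ctcf-cKO replicate 3 thus lay between those of the WT mice, and 4 counts do not settle its direction. Elongating cells of that mouse held 0 counts, as did those of WT replicate 2.

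The tables held 6701235 and 4859455 counts in WT replicates 1 and 2, and 2652665 and 1593546 counts in Ctcf-cKO replicates 1 and 3. Barcodes with fewer than 200 genes, taken here as RNA free in the suspension, held 1.57%, 12.1%, 40.8% and 46.9% of the counts of these libraries in that order, but this cut falls differently in libraries of unequal depth. All barcodes outside the kept cells held 71.0%, 45.9%, 43.8% and 49.1% of the counts, so these shares do not rank the genotypes by free RNA. After filtering 811 cells were kept, 337 of WT and 474 of Ctcf-cKO mice, of which 64 were spermatocyte-like, 202 round spermatid-like and 276 elongating spermatid-like by their markers. Of the round class WT replicates 1 and 2 gave 16 and 137 cells and Ctcf-cKO replicates 1 and 3 gave 37 and 12, and of the elongating class 61, 20, 91 and 104 in that order. Any pair of libraries shared 723 to 1310 barcodes over the whole tables, but at most 1 among the kept cells. All values below are given in the order WT replicate 1, WT replicate 2, Ctcf-cKO replicate 1 and Ctcf-cKO replicate 3.

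The genes lie on 5 chromosomes (GENCODE vM21, GRCm38). Tssk1 (chr16:17894223-17897922) and Tssk2 (chr16:17898637-17900024) are single-exon neighbours on the plus strand, 714 bases apart with no other annotated gene between them. Their transcripts share a run of 113 identical bases, so reads from one could have been counted for the other, while no other pair of the 6 shares a run longer than 14 bases. Tssk3 (chr4:129489014-129491022, minus strand) has 2 exons, Tssk4 (chr14:55650184-55652539, plus strand) has 3 or 4 depending on the transcript, Tssk6 (chr8:69902184-69903518, plus strand) has 1, and Tsks (chr7:44943204-44958035, plus strand) has 4 to 11. All 3700 bases of Tssk1 lie within Dgcr2 on the opposite strand, and Tssk6 overlaps Yjefn3 by 529 bases and Ndufa13 by 375 bases, also on the opposite strand. Whether strand was used in counting is not given in the sources used here, so reads of these partners cannot be told apart from those of Tssk1 and Tssk6.

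The promoters of the adjacent Tssk1 and Tssk2, and that of Tssk4, whose counts depart most from the others below, are shown as RefSeq gives them (GRCm38.p6, 250 bases before to 50 after the start site, plus strand). Capitals mark TGACTTCA, letters close to the cyclic AMP response element TGACGTCA, which were searched on both strands after they had been seen in these windows. The windows are chr16:17893953-17894252, chr16:17898387-17898686 and chr14:55649934-55650233.
Tssk1: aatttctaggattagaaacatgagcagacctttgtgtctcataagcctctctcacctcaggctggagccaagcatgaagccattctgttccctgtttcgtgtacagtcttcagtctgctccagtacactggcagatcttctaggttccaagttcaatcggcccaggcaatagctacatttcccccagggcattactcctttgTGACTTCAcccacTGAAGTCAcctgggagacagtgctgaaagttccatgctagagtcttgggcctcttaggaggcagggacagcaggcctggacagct
Tssk2: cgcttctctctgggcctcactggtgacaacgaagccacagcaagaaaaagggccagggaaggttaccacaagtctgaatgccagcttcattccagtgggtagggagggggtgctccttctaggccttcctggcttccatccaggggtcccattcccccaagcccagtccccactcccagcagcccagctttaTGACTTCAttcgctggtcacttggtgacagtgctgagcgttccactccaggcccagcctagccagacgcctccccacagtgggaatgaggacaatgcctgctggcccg
Tssk4: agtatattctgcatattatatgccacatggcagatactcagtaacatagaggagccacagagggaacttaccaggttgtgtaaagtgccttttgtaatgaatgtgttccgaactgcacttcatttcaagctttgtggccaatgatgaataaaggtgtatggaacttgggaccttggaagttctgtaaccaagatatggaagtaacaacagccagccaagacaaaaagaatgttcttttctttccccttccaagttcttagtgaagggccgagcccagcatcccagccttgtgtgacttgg
Tssk1 holds the 8 letters on each strand once, at bases 48 to 41 and 35 to 28 before the start, and Tssk2 once, at bases 58 to 51 before it. The same letters occur in 1.52% of 32851 mouse promoter windows, and in none of the other 4 genes. The full element TGACGTCA, present in 1.79% of windows, was in none of the 6, and neither were GTTGCC, a part of the X-box, TATAAA or the core CTCF motif, found in 12.5%, 13.6% and 0.557% of windows. The shorter TGACG, in 20.8% of windows, occurred in Tssk6 only, at bases 73 to 69 before the start. These matches describe letters and are no evidence of binding. Windows of the 6 genes held 43.3% (Tssk4) to 60.7% G and C (Tssk6 and Tsks), against a median of 52.7% over all windows.

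From round to elongating spermatid-like cells, a division made after the data had been seen, the 6 genes differed in 2 ways that were the same in each of the 4 mice. TSSK4 and TSSK1 were lower in elongating than in round spermatid-like cells, and TSSK2, TSSK3, TSSK6 and TSKS were higher. The genes had been kept out of the variable genes that placed the cells, but classes were built from the same cells, so these stage values are a description without a test. Beside the round values stands the level of each gene in the free RNA of the same library. It was taken from the barcodes with fewer than 200 genes, and compares make-up, not the amount of free RNA in a cell. Subtraction of free RNA, an alternative below, left 576096 of 598427, 1494366 of 1602418, 418379 of 433060 and 116272 of 118863 counts in round cells.

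TSSK4 was mainly found in round cells. In spermatocyte-like cells it reached 38.9, 54.4, 12.6 and 0 CPM, from 5, 28, 2 and 0 counts, where a count of 0 allows up to 75.5 CPM. In round spermatid-like cells it reached 499.6, 329, 342 and 261 CPM, which was 1.14, 1.47, 3.73 and 2.24 times its level in free RNA. In elongating spermatid-like cells it was at 59.4, 77.3, 71.8 and 36.8 CPM. Every mouse was thus lower in the elongating class than any mouse in the round class, with means of 358 ± 101 and 61.3 ± 18.0 CPM (SD, n = 4 mice). The log2 ratio of elongating to round cells averaged -2.54 ± 0.46 (SD, n = 4), and -3.10 once free RNA had been subtracted.

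TSSK1, a partner of TSSK2 in binding TSKS, differed less between round and elongating cells. It was at 587, 452, 420.3 and 623 CPM in round cells and at 413, 361, 287 and 383 CPM in elongating cells. The round values were 1.37 to 1.86 times those of free RNA. Every elongating value lay below every round value, though the nearest, 413 and 420.3 CPM, were close. The log2 ratio averaged -0.52 ± 0.15 (SD, n = 4). Spermatocyte-like cells held 109, 128 and 119.6 CPM in 3 mice and 478 CPM in Ctcf-cKO replicate 3, where 10 cells gave 19 counts. Those 10 cells held 1 count of the meiotic gene SYCP3 (25.2 CPM), against 544, 507 and 422 CPM in the other mice. The spermatocyte list as a whole, with 19 markers in the tables, differed less, at 13653, 12617, 10194 and 9336 CPM. Leydig markers in the spermatocyte-like sums were at 163, 226, 10446 and 7373 CPM.

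TSSK2 was at 745, 1092, 961 and 1119 CPM in round cells and at 1784, 1819, 1503 and 1211 CPM in elongating cells. Its round values lay close to free RNA, at 0.98 to 1.2 times that level. The elongating class was higher in each mouse, and the classes did not overlap between mice. The difference was smallest in Ctcf-cKO replicate 3, with a log2 ratio of 0.11, and averaged 0.69 ± 0.47 (SD, n = 4). The neighbouring genes TSSK1 and TSSK2 therefore moved in opposite directions from round to elongating cells in all 4 mice, although reads in their shared stretch may have gone to either.

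TSSK3 was at 338, 613, 423 and 159.8 CPM in round cells, below the free RNA of each library. The values were 0.75, 0.92, 0.83 and 0.30 times its level, and the part of free RNA in them was not tested. In elongating cells TSSK3 reached 1414, 845, 866 and 733 CPM, 1.26 to 3.16 times the level in free RNA. The classes did not overlap between mice, and the log2 ratio was 1.44 ± 0.83 (SD, n = 4).

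TSSK6, the kinase required for histone removal, varied most between mice in round cells, at 232, 1236, 684 and 101 CPM, again below free RNA in all 4 libraries, at 0.12 to 0.87 times its level. In elongating cells it was at 2426, 1819, 1712 and 1329 CPM, above every round value. The log2 ratio averaged 2.24 ± 1.54 (SD, n = 4). Its spread in round cells followed that of PRM1, the protamine gene of elongating cells, at 4271, 31914, 18064 and 4047 CPM in the same sums, and the part of free or neighbouring spermatid RNA in these values was not tested. TSSK6 had no count in the 5 spermatocyte-like cells of WT replicate 1, which allows up to 23.3 CPM, but stood at 1001, 623 and 629 CPM in the other mice, where PRM1 was at 21687, 20660 and 22171 CPM against 661 CPM in WT replicate 1.

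TSKS, the substrate, was also higher in elongating than in round cells. It was at 159, 322, 344 and 219 CPM in round cells and at 501, 562, 549.8 and 497 CPM in elongating cells, with no overlap. The round values were below free RNA in 3 of the 4 mice, at 0.67 to 0.77 times its level, and at 1.11 times in WT replicate 2. The log2 ratio was 1.08 ± 0.44 (SD, n = 4), and in elongating cells TSKS varied least of the 6 genes between mice relative to its mean, with 527 ± 33.1 CPM (SD, n = 4).

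When the cells were divided by pseudotime instead, into a mid class that mixes round and elongating clusters and a late class that is 1 elongating cluster, part of this order differed. From mid to late cells TSSK3 and TSSK6 were higher in all 4 mice, at 1.21 to 2.99 and 1.46 to 3.34 times the mid level, and TSSK1 and TSSK4 were lower in all 4. TSSK2 was lower in late cells in all 4 mice, at 0.51, 0.75, 0.87 and 0.82 times the mid level, although it was higher in elongating than in round cells. TSKS was higher in late cells of both WT mice, at 1.76 and 2.59 times the mid level, and lower in those of both Ctcf-cKO mice, at 0.87 and 0.82 times, and WT replicate 2 had 5 late cells.

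**Figure D1:**
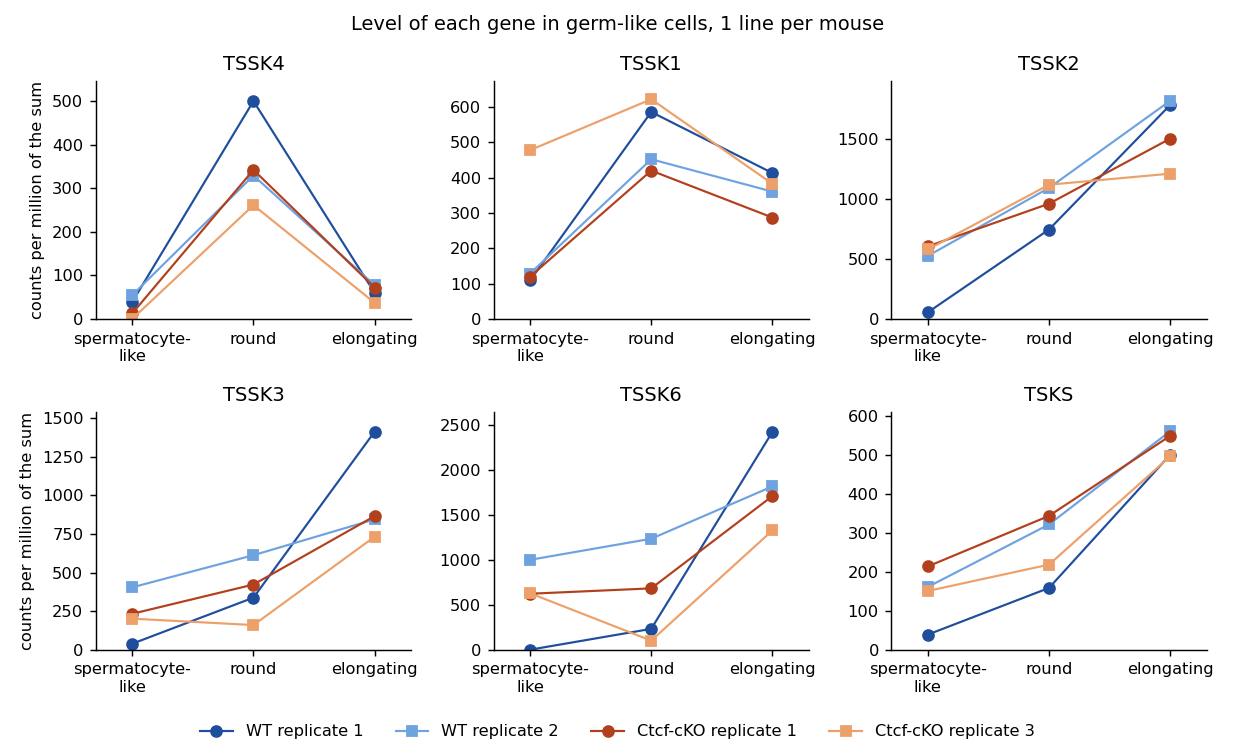
CPM of each gene in the summed spermatocyte-like, round and elongating spermatid-like cells, with 1 line per mouse and no error bars because each point is 1 sum. TSSK4 and TSSK1 peak in round cells in all 4 mice, at 261 to 499.6 and 420.3 to 623 CPM, and the other genes are highest in elongating cells.

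The make-up of the counts of the 6 genes changed accordingly. TSSK4 made up 19.5%, 8.13%, 10.8% and 10.5% of the 6-gene counts in round cells and 0.901%, 1.41%, 1.44% and 0.879% in elongating cells. TSSK6 made up 9.07%, 30.6%, 21.5% and 4.07% in round cells and a narrow 31.7% to 36.8% in elongating cells. Other genes differed between mice in elongating cells too, over 1064 to 7215 counts per mouse. TSKS made up 7.6% of them in WT replicate 1 (Wilson 95% interval 7.01% to 8.23%) and 11.9% in Ctcf-cKO replicate 3 (10.1% to 13.9%). WT replicate 2, at 10.2% (8.56% to 12.2%), lay near Ctcf-cKO replicate 1, at 11.0% (9.78% to 12.4%). TSSK3 made up 21.4% in WT replicate 1 (20.5% to 22.4%) and 15.4% in WT replicate 2 (13.4% to 17.7%). Round cells held 295 to 6481 counts of the 6 genes per mouse. These are shares of 3′ counts and not abundances per length.

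**Figure D2:**
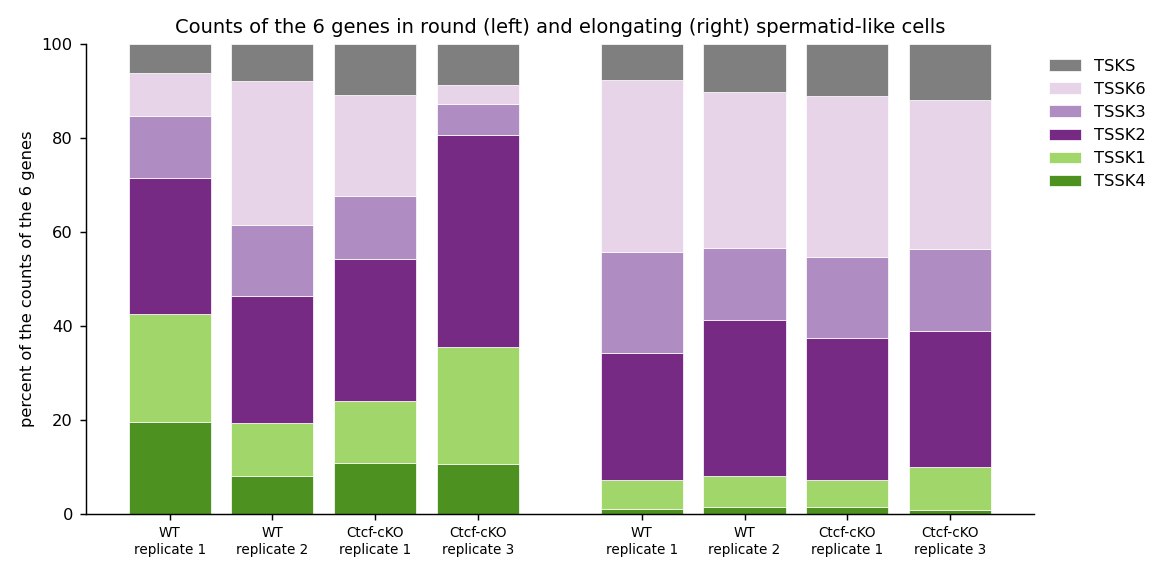
Percent of the counts of the 6 genes that each gene supplied in round (left) and elongating (right) spermatid-like cells of each mouse, as stacked bars. The TSSK4 part is 8.13% to 19.5% in round cells and at most 1.44% in elongating cells.

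The share of cells with a count was compared after each cell had been thinned to 900 counts. TSSK4 was seen in 18.8%, 19.7%, 21.6% and 33.3% of round cells and in 3.28%, 15.0%, 6.59% and 0.962% of elongating cells. Leydig-like cells, somatic cells that should lack these kinases, showed TSSK4 in 0 of 7 cells of WT replicate 1 and in 2.86% and 0% of cells of Ctcf-cKO replicates 1 and 3, and WT replicate 2 had 0 such cells. In Ctcf-cKO replicate 3 the exact 95% binomial intervals of the round and Leydig-like shares, 9.92% to 65.1% and 0% to 7.55%, did not overlap, but in the other mice that had Leydig-like cells they did. Median counts per cell before thinning were 38109, 9339 and 2955 in round and 4597, 5546 and 3070 in Leydig-like cells of these 3 mice. TSSK6 was seen in 78.7%, 75.0%, 59.3% and 48.1% of elongating cells. In Leydig-like cells of the Ctcf-cKO mice it was still seen in 31.4% and 42.6% of cells, and the exact interval of 28.3% to 57.8% in replicate 3 held its elongating share. For TSSK3 in Ctcf-cKO replicate 3 the shares were 27.9% in elongating and 27.7% in Leydig-like cells, so this share was at background, while the level there, 733 CPM, was 1.38 times that of free RNA. Before thinning TSSK6 had a count in 100% of elongating cells of both WT mice and in 75.8% and 61.5% of those of the Ctcf-cKO mice, and median counts per elongating cell were 15766, 6753, 3667 and 1759. Intervals and limits for counts of 0 cover counting error only.

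Likeness over 15 sums of mouse and germ-like class (spermatocyte-like, and spermatid-like divided by pseudotime into early, mid and late) is given as a correlation of log2(CPM + 1) among 3499 genes with a mean of at least 50 CPM. These sums share libraries and depth, so the values are descriptions. TSSK4 was most like ACRV1, a protein of the acrosome, with r = 0.98, then ODF3L1 (0.97) and 1700113H08RIK (0.96). TSSK1 was most like FAM104A (0.92), D11WSU47E (0.90) and CRLS1 (0.90), the last an enzyme of cardiolipin synthesis. TSSK2 was closest to ACTRT2 (0.97), PRM3 (0.97) and ACTG2 (0.97), and TSSK3 to 1700009N14RIK (0.99), SMCP (0.99), a protein of the sperm mitochondrial capsule, and GSG1 (0.98). TSSK6 was closest to PRKAR2A (0.99), a regulatory subunit of protein kinase A, SKP2 (0.99) and CCSAP (0.98). TSKS was closest to STK35 (0.96), ZNRF4 (0.95) and GAPDHS (0.95), the glycolytic enzyme of sperm. Among themselves, the 6 pairs of TSSK2, TSSK3, TSSK6 and TSKS had r between 0.78 and 0.90, and the 9 pairs with TSSK1 or TSSK4 had r between -0.16 and 0.39. TSSK6 had 0 counts in the spermatocyte-like and early sums of WT replicate 1. In that spermatocyte-like sum TSSK2, TSSK3 and TSKS were at 54.4, 38.9 and 38.9 CPM. The weight of these low sums in r was not tested.

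The study asked what the loss of Ctcf changes during spermiogenesis, so each gene was compared between genotypes with the mouse as replicate, by edgeR (quasi-likelihood F test), and p-values were adjusted over all genes tested after Benjamini and Hochberg. Below, both Ctcf-cKO mice sometimes lay above or below both WT mice, for the 6 genes, the lists or the markers. The share of all genes that separated in this way was not counted, so such separations are given as description. Over all barcodes of each mouse, TSSK4 was lower in Ctcf-cKO mice, and the other 5 genes did not pass the adjusted threshold of 0.05. TSSK4 was at 273 and 216 CPM in WT and at 112 and 86.6 CPM in Ctcf-cKO mice, without overlap, with a log2 fold change of -1.22 (SE 0.22, adjusted p = 0.00185). That is 1 of 6 genes lower and 0 of 6 higher, while 10.1% of all 14552 genes tested were lower and 18.4% higher, so the share of these genes that was called is near the background. In such whole-sample sums fewer cells of a type and less RNA per cell cannot be told apart.

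Round spermatid markers moved with TSSK4. The 20 markers of the list summed to 11593 and 10931 CPM in WT and to 7388 and 7024 CPM in Ctcf-cKO mice, 18 of them below both WT values in both Ctcf-cKO mice and none at 0. The spermatocyte list summed to 8877, 9205, 6025 and 5886 CPM, with 15 of 19 markers below both WT values, and the 14 Leydig markers lay above both, with sums of 669, 275, 7333 and 6496 CPM. How many of all genes lay below or above both WT values was not counted, so these marker counts have no background. The part of these shifts in the TSSK4 value was not tested. Relative to the acrosomal gene ACRV1, its nearest in pattern and chosen for that after its values were seen, TSSK4 had 46.6, 41.6, 46.0 and 35.5 counts per 100 over all barcodes, and the genotypes overlapped. Without Ctcf-cKO replicate 3 the log2 fold change of TSSK4 was -1.07 and the adjusted p in edgeR 0.0578, and over all alternatives this p lay between 5.28e-07 and 0.0578.

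TSKS went the other way, at 231, 295, 412 and 341 CPM, both Ctcf-cKO mice above both WT mice, but its log2 fold change of 0.58 (SE 0.21) had an edgeR adjusted p = 0.0533. TSSK1 was at 408, 337, 293 and 319 CPM, with a log2 fold change of -0.22 (SE 0.18). TSSK2 at 806, 990.4, 991 and 919 CPM, TSSK3 at 491, 608, 525 and 547 CPM, and TSSK6 at 685, 1282, 1141 and 885 CPM overlapped between genotypes, and their log2 fold changes were 0.15, 0.02 and 0.10. The WT mice differed most for TSSK6. When WT replicate 2 was left out, so that the lone WT library was assumed to vary like the others, 4 genes were called: TSSK2, TSSK6 and TSKS as higher, with log2 fold changes of 0.31, 0.63 and 0.77 and edgeR adjusted p of 0.0362, 0.000422 and 0.000792, beside TSSK4 as lower. In that fit 16.5% of 14999 genes were higher and 13.1% lower. Without WT replicate 1 TSSK2, TSSK6 and TSKS were at -0.05, -0.33 and 0.36 and did not pass.

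**Figure D3:**
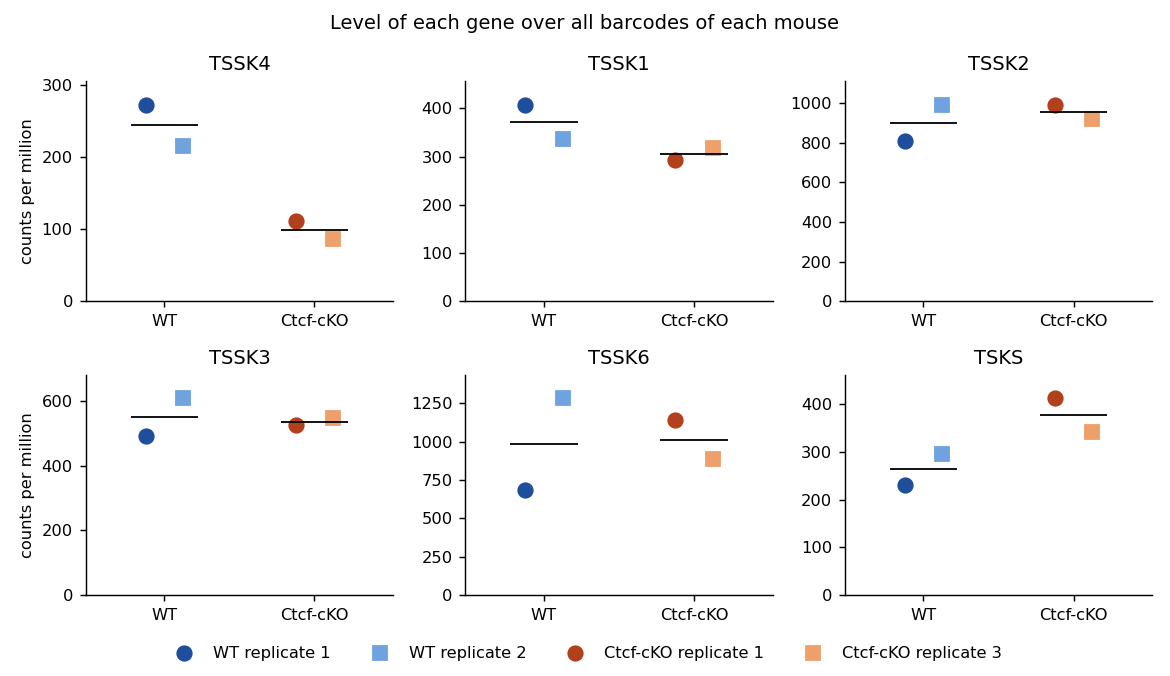
CPM of each gene over all barcodes of each mouse, with points for mice and lines for the mean of each genotype. TSSK4 is lower in both Ctcf-cKO mice (112 and 86.6 CPM) than in both WT mice (273 and 216 CPM).

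Genes that work with the kinases were compared in the same way. Of the partner list 6 of 7 genes were tested over all barcodes, and 2 were lower: HSP90AA1, a chaperone, with a log2 fold change of -2.06, and SPAG16, an axoneme protein bound by TSSK2, with -1.31 (edgeR adjusted p = 0.00266 and 0.00313). HSP90AA1 was at 404.7 and 131 CPM in WT and at 60.7 and 60.9 CPM in Ctcf-cKO mice, and without WT replicate 1 its value was -1.10. SPAG16 was at 106 and 95.9 CPM in WT and at 35.1 and 43.3 CPM in Ctcf-cKO mice. TSACC, ODF2, PDPK1 and the phosphatase gene PPP1CC had values of -0.18, 0.04, 0.15 and 0.94 and did not pass. Of the chromatoid body list 5 of 6 genes were lower, DDX4, DDX25, PIWIL1, TDRD6 and TDRD7, with log2 fold changes of -0.83 to -1.39. None of either list was higher, beside the 10.1% of all genes tested that were lower and the 18.4% that were higher. TDRD1 had -0.48 and did not pass. Of the 7 called genes of both lists, DDX4 alone was called without Ctcf-cKO replicate 1, and HSP90AA1, SPAG16 and TDRD6 without Ctcf-cKO replicate 3. The median log2 fold change was -1.04 over the chromatoid body list, -0.07 over the partner list, 0.06 over the 6 genes and -0.04 over all genes tested. With all mice, no gene of either list was called within spermatid-like cells together, round cells and elongating cells. Medians over the chromatoid body genes tested were -0.23, -0.15 and 0.25 there, against -0.07, -0.05 and 0.11 over all genes. Partner values depended on the WT mouse kept. In spermatid-like cells together ODF2, TSACC and HSP90AA1 had -0.62, -1.11 and -1.62 without WT replicate 2. Without WT replicate 1 they had -0.09, -0.23 and 0.68. In elongating cells ODF2 and TSACC had -0.95 and -1.32 without WT replicate 2. Without WT replicate 1 both had -0.23. Each of these fits rests on a lone WT library. In elongating cells DDX4 was at 36.6, 56.7, 89.8 and 132.5 CPM, both Ctcf-cKO mice above both WT mice, with 1.18 (SE 0.55). PDPK1 and ODF2 went the other way there, both Ctcf-cKO mice below both WT mice, with -0.66 (SE 0.30) and -0.46 (SE 0.30). TSACC overlapped between genotypes in these cells, with -0.73 (SE 0.37). Most of the chromatoid body genes are transcribed from meiosis on. Over all barcodes 5 of 6 were lower, as were the spermatocyte and round spermatid marker sums given above. PIWIL1 belongs to both the chromatoid body and the spermatocyte list, so these lists are not independent. The part of cell make-up in these values was not tested.

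Within spermatid-like cells summed together, none of the 6 genes was called, against 6.12% of 9310 genes higher and 0.322% lower in Ctcf-cKO mice. At an unadjusted p under 0.05 edgeR called 1694 genes, TSSK4 alone among the 6, and DESeq2 called 527 after adjustment and none of the 6. TSSK4 was again lowest in fold change, at 215, 302, 205 and 105 CPM, with -0.86 (SE 0.36, adjusted p = 0.206), and leaving out Ctcf-cKO replicate 1 gave -1.49, while leaving out replicate 3 gave -0.50. TSSK6 was at 1650.2, 1299, 1205 and 955 CPM, with -0.65 (SE 0.36). Both were lower in both Ctcf-cKO mice than in both WT mice. TSKS was above both WT mice in both Ctcf-cKO mice, at 380, 348, 448 and 412 CPM, with 0.06 (SE 0.32). None of these differences passed the test over all genes. TSSK1, TSSK2 and TSSK3 overlapped between genotypes. The sums mix stages unequally, with 16, 137, 37 and 12 round cells to 61, 20, 91 and 104 elongating ones. Leydig markers in them were at 57.9, 198, 3191 and 3298 CPM and red blood cell markers at 1.18, 10.6, 4245 and 1068 CPM. Of the 20 round spermatid markers 8 lay below both WT values in both Ctcf-cKO mice and 0 above both. The part of these shifts in the values was not tested. Without WT replicate 2, TSSK3 and TSSK6 were called lower, with -1.04 and -0.87 (edgeR adjusted p = 3.31e-05 and 5.06e-05), and in that fit 4.12% of 9371 genes were lower and 7.36% higher. Without WT replicate 1 the same values were -0.15 and -0.33 and did not pass.

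In round spermatid-like cells the genotypes overlapped for all 6 genes, none was called, and the background was 0% in both directions of 6334 genes by edgeR, with 224 at an unadjusted p under 0.05 and 6 by DESeq2, none of them of the 6 genes. TSSK4, whose whole-sample sum fell, had a log2 fold change of -0.50 (SE 0.39) here, and TSSK2 and TSSK1 had 0.04 (SE 0.37) and -0.11 (SE 0.35). TSSK6 had -0.96 with an SE of 0.94, so round cells of these mice did not fix its direction. Ctcf-cKO replicate 3 gave 12 of these cells.

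In elongating spermatid-like cells all 6 log2 fold changes were below 0, with a median of -0.47 against 0.11 over the 4062 genes tested. None of the 6 passed, where 15.6% of genes were higher and 1.43% lower. The direction of TSSK4 turned with free RNA subtracted, and that of TSKS turned under other choices of cells or clustering. The class joins 2 clusters that the genotypes filled unequally, and the later one held 28 of 61 and 5 of 20 WT cells but 57 of 91 and 75 of 104 Ctcf-cKO cells. By DESeq2 547 genes passed, and 1194 had an unadjusted p under 0.05 in edgeR, in both cases without the 6. TSSK2 and TSSK6 were lower in both Ctcf-cKO mice than in both WT mice, with -0.54 (SE 0.28, adjusted p = 0.232) and -0.63 (SE 0.31, adjusted p = 0.204). TSSK3 had -0.67 (SE 0.35), with 1414 CPM in WT replicate 1 and 845 CPM in WT replicate 2 against 866 and 733 CPM. TSKS, by contrast, had -0.15 (SE 0.29). Without WT replicate 2, which held 20 of these cells, TSSK2, TSSK3 and TSSK6 were called lower, with -0.87, -1.30 and -1.15, in a fit where 8.91% of 6198 genes were lower and 13.2% higher. Without WT replicate 1 they were -0.51, -0.17 and -0.34 and did not pass.

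Transcripts of other cells moved with genotype in the same sums. In elongating cells the 14 Leydig markers summed to 27.4 and 67.0 CPM in WT and to 3929 and 4395 CPM in Ctcf-cKO mice, and the 13 macrophage markers to 205, 263, 3319 and 3873 CPM, with none at 0 over the mice. Red blood cell markers, of which 4 were in the tables, summed to 1.83, 0, 7916 and 1432 CPM, and 11 Sertoli markers to 30.2, 159.8, 1703 and 2338 CPM. The 20 markers of elongating spermatids summed to 248590 and 243996 CPM in WT and to 184614 and 179011 CPM in Ctcf-cKO mice, 13 of them below both WT values. Their part in the lower kinase values was not tested. With free RNA subtracted, none of the 6 was called, as before.

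**Figure D4:**
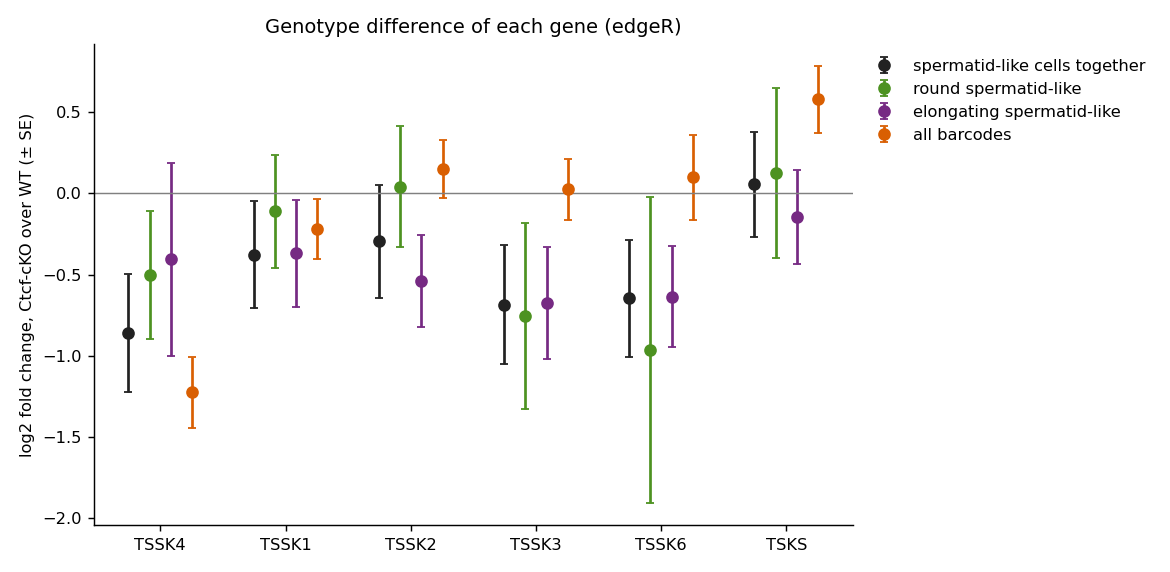
Log2 fold change of Ctcf-cKO over WT for each gene, with the standard error as bars (n = 2 mice per genotype), in spermatid-like cells together, round and elongating spermatid-like cells and all barcodes. The TSSK4 value over all barcodes, -1.22, is the only one that passed the adjusted threshold.

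When spermatid-like clusters were divided by pseudotime instead, the earliest held 1 cell of Ctcf-cKO replicate 3 and could not be tested. In the mid class 0.939% of 7454 genes were higher and 0% lower, in the late class 8.56% of 2674 genes were higher and 0% lower, and none of the kinase genes or TSKS was called in either. At an unadjusted p under 0.05 edgeR had 654 and 519 genes, none of them of the 6, and DESeq2 called 120 and 156, again without the 6. TSSK4 was too low to be tested in the late class, where it had 9, 3, 8 and 5 counts. TSSK6 in the late class was at 4111, 2532, 1763 and 1294 CPM, both Ctcf-cKO mice below both WT mice, and its log2 fold change was -1.30 (SE 0.82). TSKS was likewise lower in both Ctcf-cKO mice, at 637, 921, 441 and 373 CPM, with -0.94 (SE 0.64). TSSK2 was higher in both, at 905, 921, 1233 and 1079 CPM, with 0.25 (SE 0.68). Its value turned to -0.27 without WT replicate 2 and was 0.81 without WT replicate 1. TSSK1 and TSSK3 overlapped between genotypes, with 1.52 (SE 0.87) and -1.26 (SE 0.85). In the mid class TSKS was above both WT mice, at 362, 355, 508 and 452 CPM, and TSSK3 and TSSK6 were below both, with 0.28, -0.48 and -0.44. The other mid values overlapped. Leydig markers in the late sums were at 11.5, 46.0, 5255 and 5733 CPM, macrophage markers at 285, 368, 5012 and 5308 CPM and red blood cell markers at 0, 0, 10564 and 1837 CPM. The elongating spermatid markers were at 233941, 223419, 159584 and 154070 CPM, and the part of these shifts in the late values was not tested. Without WT replicate 2, TSSK3, TSSK6 and TSKS were called lower in late cells and TSSK1 higher, with -2.11, -2.05, -1.26 and 2.42, in a fit where 12.7% of 4086 genes were lower and 14.9% higher. Without WT replicate 1 these values were 0.27, -0.24, -0.69 and 0.41 and did not pass.

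Whether the genotype difference itself changed with stage was tested by the class by genotype term, with the mouse as a block. Between mid and late cells no gene was called (0% of 5182 in either direction, 214 at an unadjusted p under 0.05), and without WT replicate 2 the calls were 0.926% of 6584 genes in the direction of higher late differences, TSSK1 among them, and 2.51% in the other, TSSK3 and TSSK6 among them. Between round and elongating cells 0.236% of 7197 genes differed in one direction and 0% in the other, and none was a kinase of the group or TSKS. With all 4 mice no difference between stages in the response to Ctcf loss was therefore shown for these genes.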

How the data were processed

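Counts came from ddSEQ droplets with a 3′ library kit in testes of 2 WT and 2 Ctcf-cKO mice. Reads were aligned to GRCm38 by the authors, with default settings after earlier reports that their methods cite. The deposited values are raw counts, 1 whole number for each symbol and barcode. The counting tool, its use of strand and its treatment of molecules are not given in the sources used here. Of the 25824 symbols 24 look like dates. Replicates are separate mice by the study's methods.

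Cells were barcodes with 200 to 7000 genes, at most 10% mitochondrial counts and at least 3 times the median count of ranks 301 to 1000 of the library. The study's methods count 405 WT and 503 Ctcf-cKO cells, whereas the limits on genes and mitochondrial counts alone passed 4227, 2075, 327 and 293 barcodes. WT replicates 1 and 2 kept 96 and 241 cells and Ctcf-cKO replicates 1 and 3 kept 228 and 246, with median counts per cell of 15357, 8251, 4668 and 2338. Clustering used Seurat 5.3.0 under R 4.3.3 (2000 variable genes without the 6 genes and the partner list, 15 components, Harmony rewritten with theta 2 and sigma 0.1, resolution 0.9). Doublets were not called. Clusters needed 3 markers of a list for a name, and 74 cells stayed unnamed. A difference from the study may come from these rebuilt names. Pseudotime came from scanpy 1.11.5 with 30 neighbours. The division into round and elongating cells was chosen after seeing the data, because 1 early cell in a mouse could not be tested.

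Sums over the cells of a class (5 or more in each mouse) were fitted in edgeR 4.0.16 with TMM factors, filterByExpr and the quasi-likelihood F test. Genes with a Benjamini-Hochberg p under 0.05 were called. Standard errors were taken as |log2 fold change| / √F. The code was tested on simulated data. Alternatives were DESeq2 1.42.0, other size factors, no filter, each mouse left out, other cells and clusters, and subtraction of free RNA. Named genes were the 6 genes, the partner and chromatoid body lists and the 3 genes most like each. The 6 genes and all lists were chosen with earlier results of these data known. Promoters came from RefSeq, and protein sequences were not used here.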

Additional observations from a re-analysis of the deposited data

Results flagged for a closer look

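TSKS was higher in late than in mid spermatid-like cells of both WT mice and lower in those of both Ctcf-cKO mice. The log2 ratio of late to mid cells was 0.81 and 1.37 in WT and -0.20 and -0.28 in Ctcf-cKO mice, a difference of -1.33 between the means. The test of this difference over all genes, edgeR with the mouse as a block, gave -1.31 (SE 0.86, adjusted p = 1), so it did not pass. WT replicate 2 had 5 late cells.

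A cluster of 74 cells that no marker list named also held counts of the 6 genes. Summed over the mice, it had 319 CPM of TSSK1, 1484 of TSSK2, 796 of TSSK3, 126 of TSSK4, 1616 of TSSK6 and 329 of TSKS. The mice differed, with TSSK6 at 1805, 2028, 766 and 777 CPM and TSSK1 at 222, 280, 632 and 204 CPM. The 20 elongating spermatid markers summed there to 234810, 183997, 122719 and 131887 CPM. This cluster was used in no comparison between classes, though its barcodes are part of the sums over all barcodes. The 4 mice gave 4, 36, 14 and 20 of its cells.

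Leydig-like cells of WT replicate 1 had 767 CPM of TSSK3 and 1285 CPM of TSSK6, above the 448 and 933 CPM of that mouse's free RNA. A single barcode of the 7 carried 53 of 57 TSSK6 counts and 32 of 34 TSSK3 counts. The same barcode had 10306 counts in all, with 205 of SMCP, 18 of PRM1, 0 of TSSK4 and 4 of the Leydig gene CYP17A1. In the Ctcf-cKO mice Leydig-like cells had 3.28 and 2.79 TSSK6 counts per 100 of PRM1, close to the 3.79 and 2.44 of all barcodes, against 74.0 per 100 in these 7 cells.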

How the results depend on the processing

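With 2 mice per genotype, leaving out a single library moved many calls. Round cells of Ctcf-cKO replicate 3 and late cells of WT replicate 2 numbered 12 and 5. No paired analysis was made, because replicates are separate mice and the labels name no pairs of WT and Ctcf-cKO mice. Mid cells at a resolution of 0.5 and late cells without batch correction could not be fitted, as a mouse had 0 cells there. The cause of the moves below was not tested.

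Of 258 log2 fold changes of the 6 genes under an alternative, in spermatids together, round cells, elongating cells and all barcodes, 225 kept their direction and their side of the threshold and 24 turned direction, none of them a called value. The call of TSSK4 over all barcodes was lost only without Ctcf-cKO replicate 3 (-1.07), and 8 of these values were called only without WT replicate 2. For mid and late cells and the terms between stages, numbers called are given, not the values of each gene. With a mouse left out, the number of the 6 genes called was 0 to 2 in spermatids together, 0 to 4 in late cells, 0 to 3 in elongating cells, 0 to 3 for mid against late and 0 to 4 over all barcodes, highest without WT replicate 2 in each case. The genes called in all ranged with a mouse left out from 401 to 1076 in spermatids together, 42 to 349 in mid, 15 to 1126 in late, 0 to 149 in round and 332 to 1370 in elongating cells, 1710 to 4444 over all barcodes, 0 to 226 for mid against late and 0 to 19 for round against elongating.

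With free RNA subtracted the genes called were 237 in spermatids together, 0 in late and 419 in elongating cells. With DESeq2 they were 120 in mid and 6 in round cells, without a filter 154 in mid, 32 in round and 0 for round against elongating, and with RLE size factors 9 for the latter. With the barcodes of most genes they were 160 in mid, 80 in late and 361 in elongating cells, without batch correction 0 in mid and 263 in elongating cells, at a resolution of 0.5 they were 905 in late cells, and with the 6 genes kept in clustering 139 in mid cells.

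Log2 fold changes that turned direction were, in spermatids together, TSKS at -0.068 without a filter, -0.0052 with free RNA subtracted and -0.083 to 0.24 with a mouse left out. In round cells they were TSSK2 at -0.15 and TSKS at -0.069 without a filter, TSSK6 at 0.16 without batch correction and, with a mouse left out, TSSK2 at -0.40 to 0.47, TSSK6 at -3.30 to 0.88 and TSKS at -0.52 to 0.87. In elongating cells they were TSSK4 at 0.12 with free RNA subtracted, and TSKS at 0.080 with the barcodes of most genes, 0.24 without batch correction and 0.068 with the genes kept in clustering. Over all barcodes they were TSSK3 at -0.11 and TSSK6 at -0.043 without a filter and, with a mouse left out, TSSK2 at -0.048 to 0.31, TSSK3 at -0.18 to 0.19 and TSSK6 at -0.33 to 0.63. The differences between round and elongating cells kept their direction in all 36 alternatives, and 2 moved by more than their SD, TSSK1 to -0.73 at a resolution of 0.5 and TSSK4 to -3.10 with free RNA subtracted.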
